A study of Homo sapiens with 8 samples.

Results

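The genes described here are NFE2L2, which encodes the transcription factor NRF2, its inhibitor KEAP1, and 8 target genes of NRF2: HMOX1, NQO1, GCLC, GCLM, TXNRD1, SRXN1, SLC7A11 and OSGIN1. They were chosen by name, and all 10 were found by symbol among the 58735 genes of the deposited tables. Each gene's value is the sum of the expected counts of its isoforms. BEAS-2B, an established line derived from human bronchial epithelium, was cultured on collagen-coated inserts, exposed at the air-liquid interface for 2 h and left to recover for 6 h. The clean air groups received humidified clean air and the formaldehyde groups 1 ppm formaldehyde, with CO2 added to the gas of every group. RNA depleted of ribosomal RNA was sequenced before (input, CA_IN and FA_IN) and after pull-down with a monoclonal antibody against 8-oxoguanine (8-oxoG), the main oxidized form of guanine (CA_IP and FA_IP). Each of the 4 groups held 2 libraries, 8 in all. Input and pull-down RNA of a culture were portions of one RNA preparation. BEAS-2B is a single line, so these libraries describe one genetic background. The labels name the duplicates as biological, and the study's methods mention exposures on different dates without tying libraries to them.

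NRF2 is the main transcriptional regulator of the antioxidant response. In unstressed cells KEAP1 holds NRF2 in the cytoplasm and passes it to a ubiquitin ligase for degradation. Electrophiles and oxidants modify cysteines of KEAP1, after which NRF2 accumulates, pairs with small MAF proteins and binds antioxidant response elements near its target genes. Because this control acts on the NRF2 protein, activation is usually read from the mRNAs of the targets rather than from NFE2L2 mRNA. Airway epithelium is directly exposed to inhaled oxidants and electrophiles, of which formaldehyde is one. The data were therefore asked whether the NRF2 response was raised in input RNA 6 h after formaldehyde, and whether these mRNAs differed in abundance between pull-down and input.

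Depth ran from 26152651 to 45144392 expected counts in input and from 16883500 to 23658012 in pull-down. Protein-coding genes took 70.4 to 73.0% of the counts in input and 79.4 to 81.6% in pull-down. Counts were scaled with edgeR's TMM method and are given below as CPM, the counts of a gene relative to the scaled total of its library, set to the same total in each. The marker sums in this paragraph are an exception and are relative to the plain total of each library, without TMM. Epithelial markers (8 of 8 genes tested, keratins and adhesion proteins among them) summed to between 3870 and 4763 CPM in input. In pull-down they summed to between 5534 and 6886 CPM. The TMM factors that scale the totals were 0.92 to 0.965 in input and 1.03 to 1.08 in pull-down. With these factors the epithelial ranges of input and pull-down would lie closer together. Leukocyte markers summed to between 4.64 and 8.5 CPM and endothelial markers to between 0.46 and 1.01 CPM. PTPRC, which defines leukocytes, had at most 2 expected counts in any library. CD68, the leukocyte marker that was tested, had between 74.1 and 379. Fibroblast markers summed to between 9.44 and 15.0 CPM. Markers of differentiated lung epithelium summed to between 0.15 and 0.42 CPM. SCGB1A1, the secretory club cell product, had 2 expected counts in replicate 1 of CA_IN and 0 in the other libraries.

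Per unit of length, NQO1 and TXNRD1 were the most abundant members and SLC7A11 and OSGIN1 the least. Levels are compared between genes in the deposited TPM values, which scale counts by transcript length, in CA_IN. NQO1, a cytosolic reductase of quinones, had 168 ± 30.3 TPM (SD, n = 2), and TXNRD1, the cytosolic thioredoxin reductase, 57.5 ± 6.46 TPM. SRXN1, the sulfiredoxin that repairs oxidized peroxiredoxins, followed at 11.7 ± 3.41 TPM. Next came GCLM, the modifier subunit of glutamate-cysteine ligase, at 9.44 ± 0.990 TPM. NFE2L2 itself stood at 8.87 ± 0.354 TPM. HMOX1, the inducible heme oxygenase, had 6.00 ± 0.778 TPM, KEAP1 5.09 ± 1.14 TPM and GCLC, the catalytic subunit of glutamate-cysteine ligase, 5.01 ± 0.735 TPM. SLC7A11, the light chain of the cystine importer, had 1.95 ± 0.212 TPM, and OSGIN1, an inhibitor of cell growth induced by oxidative stress, 1.60 ± 0.071 TPM. From SRXN1 to GCLC the CA_IN libraries of neighbours in this order overlapped, except those of NFE2L2 and HMOX1. NQO1 lay above TXNRD1 and TXNRD1 above SRXN1 without overlap, as did GCLC above SLC7A11 and SLC7A11 above OSGIN1.

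The consensus core of an antioxidant response element, TGACNNNGC, was searched on both strands of the promoter windows given by RefSeq on GRCh38.p14, from 250 bases before to 50 bases after each gene start. Windows were matched for 8 of the 10 members (11 windows, since several genes have more than one start). HMOX1 and SLC7A11 were not matched. The core was present in 4 of the 11 windows, in GCLM, TXNRD1 and KEAP1, and in 13.3% of all 35116 windows. Of the 6 matches, 3 are shown because they carry the element in a glutathione gene, in a thioredoxin gene and in the gene of the NRF2 inhibitor. The core is in capitals with 10 flanking bases on each side, read 5′ to 3′ on the strand that holds it.
GCLM, chr1:93909446-93909474, plus strand, the strand opposite to the gene: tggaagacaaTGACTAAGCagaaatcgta
TXNRD1, chr12:104215670-104215698, plus strand, the strand of the gene: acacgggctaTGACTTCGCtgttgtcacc
KEAP1, chr19:10502784-10502812, plus strand, the strand opposite to the gene: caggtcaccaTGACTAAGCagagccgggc
These matches began 34, 99 and 31 bases before the RefSeq start of the window that holds each. For KEAP1 that is the downstream start, and the window of its upstream start (chr19:10503307-10503606) held no core. The KEAP1 match lies inside the gene's locus as given below, which ends at 10503558. The GCLM sequence shown spans the end of its locus, 93909456. The matches shown overlapped no AP-1 site (TGAGTCA or TGACTCA). GCLM and KEAP1 shared the core TGACTAAGC. Such a match is a description of the letters only.

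Formaldehyde and clean air were first compared in input RNA, with edgeR's quasi-likelihood test fitted to all 8 libraries and Benjamini-Hochberg adjustment over the 18242 genes that had at least 10 counts in at least 2 libraries. All 10 NRF2 genes passed that filter. At an adjusted p under 0.05, 0 of the 10 were higher and 0 lower after formaldehyde, and 0 reached an unadjusted p under 0.05. DESeq2 also called 0 of them. Among all genes tested, 1 was called, which is 0.00548%, with 611 at an unadjusted p under 0.05. That gene, BIVM-ERCC5 (a readthrough of 2 neighbouring genes, named after its values were seen), was lower after formaldehyde.

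For the regulators, both log2 fold changes were negative and neither passed the test. NFE2L2 (chr2:177218667-177392756 on GRCh38, minus strand) had 49.3 and 56.0 CPM in replicates 1 and 2 of CA_IN and 44.8 and 48.8 CPM in FA_IN. Both formaldehyde libraries were below both clean air libraries, by a narrow margin. The log2 fold change was -0.17, with a standard error of 0.10 and a 95% interval from -0.41 to 0.07, and did not pass (edgeR adjusted p = 0.945). KEAP1 (chr19:10486125-10503558, minus strand) had 35.7 and 26.3 CPM in CA_IN and 30.5 and 23.2 CPM in FA_IN, so the groups overlapped. Its log2 fold change was -0.21 ± 0.21 (SE). The gap between the replicates of KEAP1 within a group was larger than the gap between the treatments.

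HMOX1 and NQO1, the targets most often used as readouts of NRF2 activity, were at similar levels in both treatments. HMOX1 (chr22:35380361-35394214, plus strand) had 23.0 and 28.6 CPM in CA_IN against 24.2 and 26.8 CPM in FA_IN. The formaldehyde libraries lay between the clean air libraries, and the log2 fold change was -0.01 with a 95% interval from -0.36 to 0.33. NQO1 (chr16:69706996-69726668, minus strand) had 490 and 394 CPM in CA_IN against 494 and 413 CPM in FA_IN. Here replicate 1 was the higher library in both treatments, and the log2 fold change of 0.04 had an interval from -0.28 to 0.36. On the linear scale the interval of NQO1 ran from 0.822 to 1.28 times its clean air level and that of HMOX1 from 0.778 to 1.26 times.

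The genes of glutathione synthesis and cystine supply had values below 0 that did not pass the test. GCLC (chr6:53497341-53616970, minus strand) had 30.3 and 29.6 CPM in CA_IN and 27.1 and 29.3 CPM in FA_IN. GCLM (chr1:93885199-93909456, minus strand) had 86.6 and 79.4 CPM in CA_IN and 78.0 and 78.2 CPM in FA_IN. SLC7A11 (chr4:138164097-138242349, minus strand) had 52.7 and 48.3 CPM in CA_IN and 45.7 and 44.3 CPM in FA_IN. In all 3 genes both formaldehyde libraries lay under both clean air libraries. Their log2 fold changes were -0.09 for GCLC, -0.09 for GCLM and -0.17 for SLC7A11, each with a 95% interval that included 0.

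In the thioredoxin branch TXNRD1 had a narrow interval around 0 and SRXN1 the widest of the members. TXNRD1 (chr12:104215779-104350307, plus strand) had 444 and 400.3 CPM in CA_IN and 450 and 400.6 CPM in FA_IN. Its log2 fold change was 0.01, with a 95% interval from -0.23 to 0.26, or from 0.850 to 1.19 times the clean air level. SRXN1 (chr20:646615-653200, minus strand) had 96.1 and 65.4 CPM in CA_IN and 71.9 and 57.1 CPM in FA_IN. The groups overlapped, and the log2 fold change of -0.33 had a standard error of 0.23 and an interval from -0.85 to 0.19. It moved to -0.58 without replicate 2 of CA_IN and to -0.02 without replicate 1 of CA_IN. OSGIN1 (chr16:83931311-83966332, plus strand) had the fewest reads, 5.33 and 4.76 CPM in CA_IN and 5.91 and 3.96 CPM in FA_IN. The FA_IN libraries of OSGIN1 enclosed the CA_IN libraries, and the log2 fold change was -0.04 with an interval from -0.52 to 0.44.

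**Figure D1:**
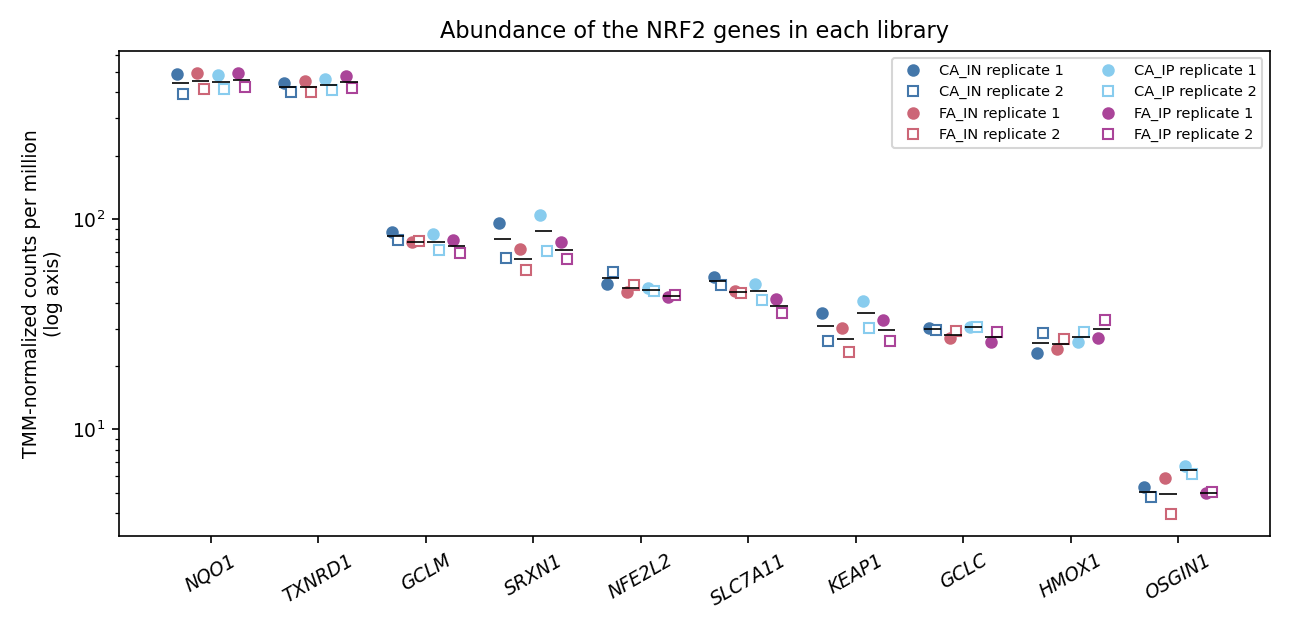
TMM-normalized CPM of each gene (log axis) in the 8 libraries, with filled circles for replicate 1, open squares for replicate 2 and a black line at the mean of each group. NQO1 and TXNRD1 lie between 394 and 494 CPM and OSGIN1 between 3.96 and 6.68 CPM.

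Across the 10 genes the log2 fold changes in input had a median of -0.09, beside 0.02 for all genes tested, and the adjusted p-values lay between 0.945 and 0.994. With TMM 2 members were above 0 and 8 below, with plain library size 0 were above 0, and with TMM factors from protein-coding genes 2 were. The groups did not overlap for 4 members (NFE2L2, GCLC, GCLM and SLC7A11), all 4 lower after formaldehyde. Among all genes tested 15.8% did not overlap in that direction, and 18.1% did not overlap in the opposite direction, in which there was no member. The highest upper bound of a 95% interval was 1.35 times the clean air level, for OSGIN1. In bulk RNA, fewer cells that express a gene and less of its RNA per cell cannot be told apart.

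**Figure D2:**
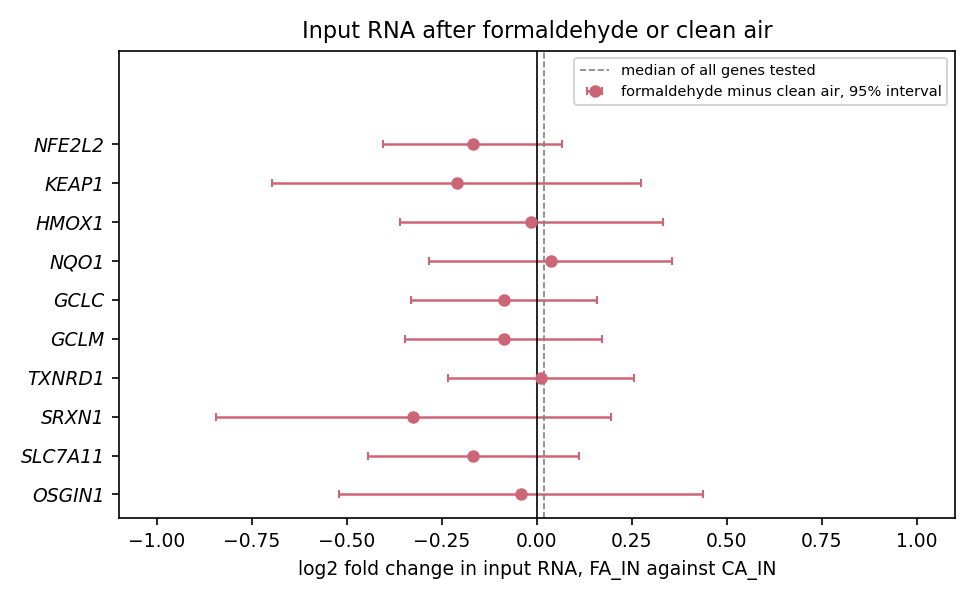
Log2 fold change of each gene in input RNA, formaldehyde against clean air, as points with 95% intervals from the edgeR fit, and the median of all genes tested as a dashed line at 0.02. Every interval of this fit, which has no block, includes 0, and the points run from -0.33 for SRXN1 to 0.04 for NQO1.

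A part of the spread in these genes followed the replicate number. KEAP1, NQO1, TXNRD1, SRXN1 and SLC7A11 were higher in replicate 1 than in replicate 2 in all 4 groups, and HMOX1 was lower in all 4. Among the 17930 genes with a count in all libraries, 21.4% were higher in replicate 1 in all 4 groups and 18.4% were lower. Averaged over the 4 groups the difference was largest for SRXN1, whose log2 CPM in replicate 1 exceeded that in replicate 2 by 0.56 in CA_IN, 0.33 in FA_IN, 0.57 in CA_IP and 0.25 in FA_IP. KEAP1 followed with 0.44, 0.39, 0.43 and 0.33. For HMOX1 the differences were -0.32, -0.15, -0.16 and -0.29. Summed over the 10 members, replicate 1 held 1313 and replicate 2 held 1133 CPM in CA_IN, and 1273 and 1125 CPM in FA_IN. Input and pull-down of a number came from one RNA preparation, so each number stands for 2 independent cultures and the differences are given as a description.

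**Figure D3:**
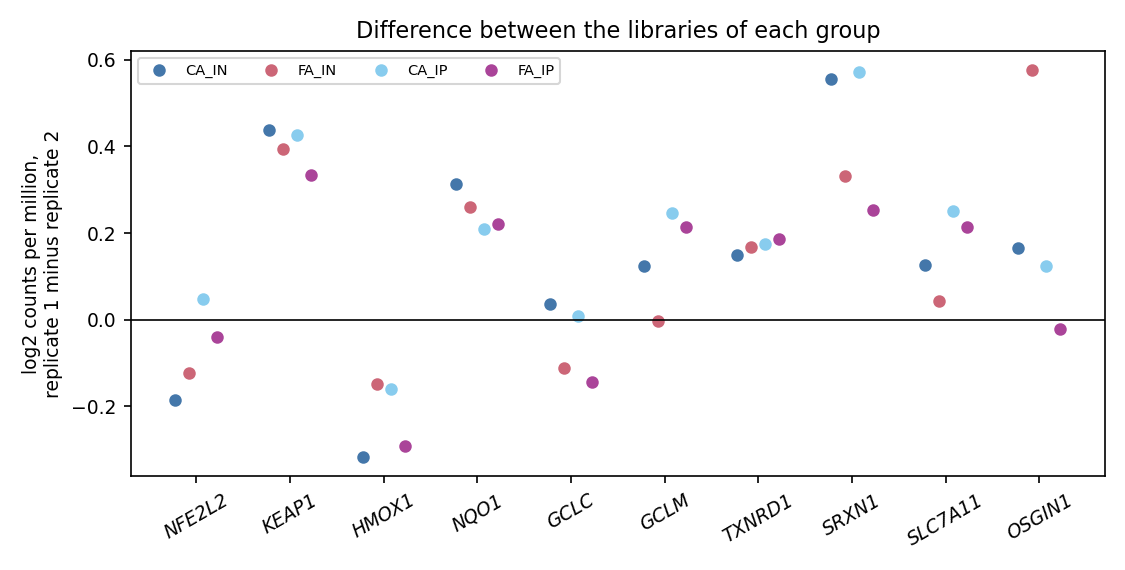
Log2 CPM in replicate 1 minus replicate 2 for each gene, with 1 point per group. KEAP1, NQO1, TXNRD1, SRXN1 and SLC7A11 lie above 0 in all 4 groups, and HMOX1 lies below 0 in all 4, between -0.32 and -0.15.

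With the replicate number as a block in the edgeR fit, 258 of all 18242 genes (1.41%) were called between FA_IN and CA_IN. Of the 10 members again 0 were called. At an unadjusted p under 0.05 were 2655 of all genes and 2 members (SRXN1 and KEAP1, both lower). The smallest edgeR adjusted p among the members was then 0.110, for SRXN1, whose log2 fold change was -0.31 with a 95% interval from -0.50 to -0.12. Within replicate 1 SRXN1 differed by -0.42 and within replicate 2 by -0.20, formaldehyde minus clean air on the log2 scale. KEAP1 differed by -0.23 and -0.18, NFE2L2 by -0.14 and -0.20, and SLC7A11 by -0.21 and -0.13. GCLC differed by -0.16 and -0.01 and GCLM by -0.15 and -0.02, both near 0 in replicate 2. These 6 members were thus lower after formaldehyde within both replicates. The share of all genes with that pattern was not computed, so the count is a description only. NQO1 (0.01 and 0.07) and TXNRD1 (0.02 and 0.00) had values at or above 0 within both, and HMOX1 (0.07 and -0.09) and OSGIN1 (0.15 and -0.26) changed sign between them.

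Pull-down and input were then compared within each treatment. In clean air 0 of the 10 members were higher and 0 lower in CA_IP than in CA_IN, with 0 at an unadjusted p under 0.05, beside 349 called genes (1.91%) of the 18242 tested, 27 of them higher (0.148%) and 322 lower (1.77%). After formaldehyde, 0 members were higher and 0 lower in FA_IP than in FA_IN, again with 0 at an unadjusted p under 0.05, beside 274 called genes (1.5%), 6 higher (0.0329%) and 268 lower (1.47%). DESeq2 called 0 members in either treatment. Summed epithelial markers, counted without TMM, were higher in pull-down than in input, as given above. In the edgeR fit KRT8 alone of these markers was called, in clean air (log2 fold change 0.41, adjusted p = 0.0347). The other keratins had values of similar size without being called. KRT7 had 0.51 in clean air and 0.41 after formaldehyde, KRT19 0.47 and 0.37, KRT18 0.42 and 0.35, and KRT5 0.40 and 0.30. The adhesion genes had smaller values, 0.27 and 0.14 for ITGB4, 0.06 and 0.10 for EPCAM, and 0.07 and 0.05 for CDH1. The part of these markers in the comparisons was not tested. With the replicate number as a block, 10.6% of genes were called in clean air and 5.22% after formaldehyde, and with the RNA preparation as a block 17.4% and 10.1%, with 0 members in each. Under the block of RNA preparation 4 members in clean air (NFE2L2, KEAP1, SLC7A11 and OSGIN1) and 2 after formaldehyde (HMOX1 and SLC7A11) were at an unadjusted p under 0.05. So were 5302 of all 18242 genes in clean air and 3960 after formaldehyde. The smallest edgeR adjusted p-values among the members in that fit were 0.0691, for KEAP1 in clean air, and 0.0687, for HMOX1 after formaldehyde.

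Among the regulators, NFE2L2 was lower in pull-down and KEAP1 higher, neither past the test. NFE2L2 had 46.8 and 45.3 CPM in CA_IP and 42.4 and 43.6 CPM in FA_IP, below the input libraries of the same treatment in both cases. Its log2 fold changes were -0.19 (95% interval -0.43 to 0.04) in clean air and -0.12 (-0.36 to 0.12) after formaldehyde. KEAP1 had 40.9 and 30.4 CPM in CA_IP and 33.2 and 26.3 CPM in FA_IP, and its log2 fold changes were 0.20 and 0.15. Pull-down exceeded input within each of the 4 RNA preparations of KEAP1, by 0.20, 0.21, 0.12 and 0.18 on the log2 scale.

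HMOX1 had 25.9 and 28.9 CPM in CA_IP and 27.1 and 33.2 CPM in FA_IP. After formaldehyde its pull-down libraries lay above both input libraries, and in clean air they overlapped. The log2 fold change was 0.24 after formaldehyde (95% interval -0.11 to 0.59, edgeR adjusted p = 0.786) and 0.09 in clean air (-0.26 to 0.44). The difference between these values was tested as the interaction of treatment and pull-down and came to 0.15, with an interval from -0.34 to 0.65. NQO1, at 480 and 415 CPM in CA_IP and 491 and 422 CPM in FA_IP, was at nearly the same level as in input, with log2 fold changes of 0.02 and 0.01.

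GCLC had 30.7 and 30.5 CPM in CA_IP and 26.2 and 28.9 CPM in FA_IP, with log2 fold changes of 0.03 and -0.03. GCLM had 84.6 and 71.3 CPM in CA_IP and 79.7 and 68.7 CPM in FA_IP, and its log2 fold changes were -0.09 and -0.08. SLC7A11 had 49.2 and 41.3 CPM in CA_IP and 41.5 and 35.8 CPM in FA_IP. Of these 3 genes SLC7A11 was the one in which both FA_IP libraries lay below both FA_IN libraries, with a log2 fold change of -0.22 (95% interval -0.50 to 0.06, edgeR adjusted p = 0.720) and -0.16 in clean air. Its pull-down was below input within each of the 4 preparations, with log2 differences of -0.10, -0.22, -0.14 and -0.31.

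TXNRD1 had 460 and 408 CPM in CA_IP and 475 and 418 CPM in FA_IP, with log2 fold changes of 0.04 and 0.07. SRXN1 had 104.5 and 70.3 CPM in CA_IP and 77.3 and 64.9 CPM in FA_IP, with log2 fold changes of 0.11 and 0.14. OSGIN1 had 6.68 and 6.13 CPM in CA_IP and 4.98 and 5.05 CPM in FA_IP. Its CA_IP libraries lay above both CA_IN libraries, and its log2 fold change of 0.34 in clean air (95% interval -0.13 to 0.82) was the largest of the members, beside 0.03 after formaldehyde. Pull-down differed from input by 0.33 and 0.37 within the clean air preparations of OSGIN1, and by -0.25 and 0.35 within those of formaldehyde. The formaldehyde value was -0.22 without replicate 2 of FA_IN and 0.35 without replicate 1. The interaction for OSGIN1 was -0.31 ± 0.30 (SE) on the log2 scale, and without these same libraries -0.54 and 0.03.

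**Figure D4:**
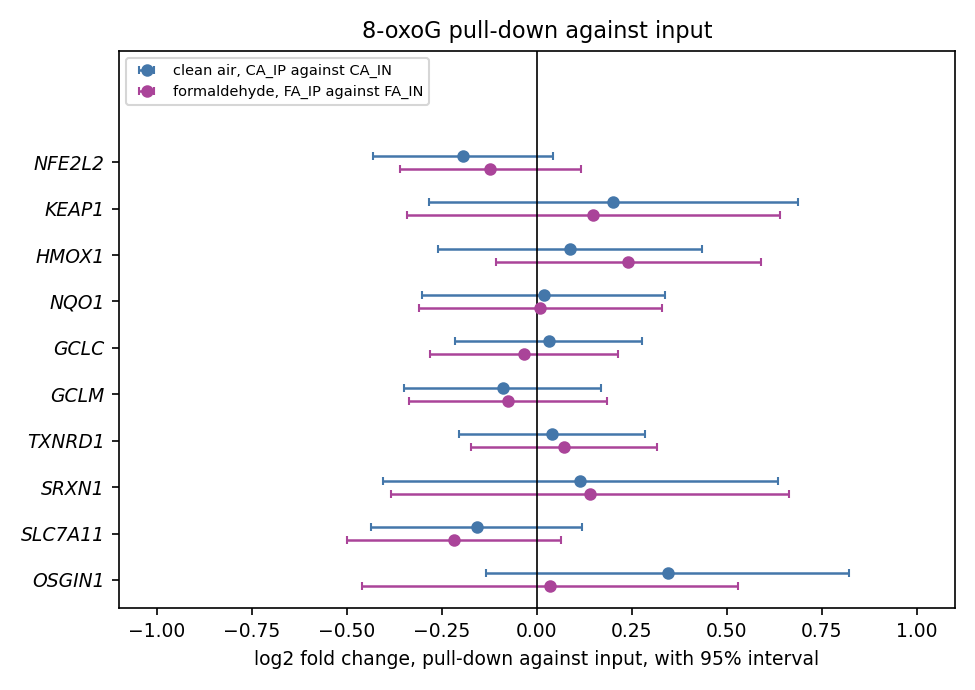
Log2 fold change of each gene in pull-down against input, with 95% intervals, in clean air and after formaldehyde. The intervals are from the fit without a block, which does not use the pairing of input and pull-down. All 20 include 0, and the points run from -0.22 for SLC7A11 after formaldehyde to 0.34 for OSGIN1 in clean air.

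Over the 10 members the median log2 fold change of pull-down against input was 0.04 in clean air and 0.02 after formaldehyde, beside 0.02 and 0.00 for all genes tested. Members above 0 numbered 7 in clean air and 6 after formaldehyde with TMM, 8 and 9 with plain library size, and 5 and 6 with TMM factors from protein-coding genes. The groups did not overlap for 2 members that were higher in CA_IP (GCLC and OSGIN1, background 22.9%) and 1 that was lower (NFE2L2, background 18.1%). After formaldehyde they did not overlap for 1 member that was higher in FA_IP (HMOX1, background 18.9%) and 2 that were lower (NFE2L2 and SLC7A11, background 18.5%). The interaction called 0 genes (0%) of all tested, with 195 at an unadjusted p under 0.05, and among the members 0 were at an unadjusted p under 0.05. DESeq2 on all 8 libraries called 3 genes and 0 members. The interaction called 0.0164% of genes with the replicate block and 0.137% with the block of RNA preparation, with 0 members in either. The members' interaction values ran from -0.31 to 0.15, with a median of 0.00 beside -0.02 for all genes.

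The antibody recognizes oxidized guanine, so the guanine content of each member's main isoform was set beside its pull-down ratio. G content was 18.6% in SLC7A11 and 18.9% in GCLM at the low end, and 30.2% in OSGIN1 and 31.8% in KEAP1 at the high end. The median of the members was 24.7%, as was that of the 17934 genes whose main isoform had a sequence in GENCODE 44. With these genes in 10 bins of G content, the median log2 ratio of pull-down to input rose from -0.19 in the lowest bin to 0.32 in the highest in clean air, and from -0.13 to 0.21 after formaldehyde. The members lay near the medians of their own bins. The farthest was NFE2L2 in clean air, at -0.16 from its bin's median, followed by OSGIN1 and HMOX1 after formaldehyde, at -0.13 and 0.13. These bins are a description, and which part of a member's ratio goes with its G content was not tested.

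**Figure D5:**
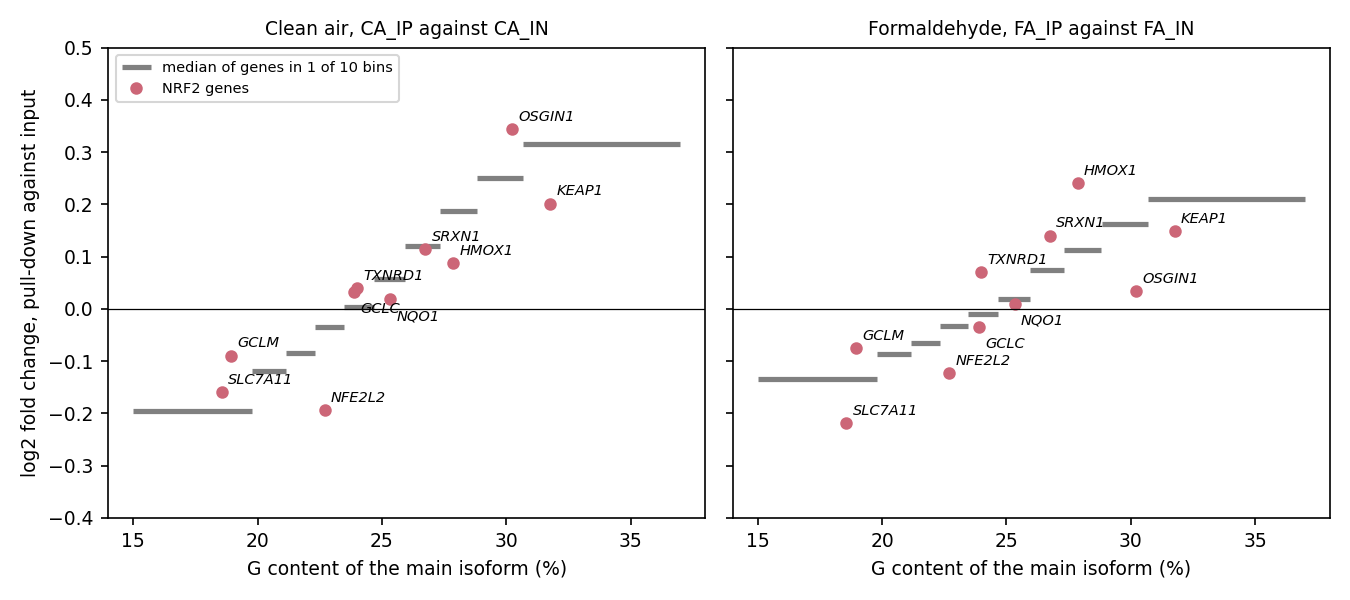
Log2 fold change of pull-down against input over the G content of the main isoform, in clean air (left) and after formaldehyde (right), with the NRF2 genes as points and the median of all genes in each of 10 bins of G content as grey bars (drawn within the plotted range). The bars rise from -0.19 to 0.32 in clean air and from -0.13 to 0.21 after formaldehyde, and every NRF2 gene lies within 0.16 of its bar.

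At the level of isoforms, where reads shared between isoforms are divided by estimation, 49 isoforms of the members passed the filter and 0 were called in any of the 4 comparisons. In input 0 of all 67873 isoforms tested were called (0%) and 1 isoform of a member was at an unadjusted p under 0.05. In pull-down against input 0.242% of all isoforms were called in clean air and 0.144% after formaldehyde. HMOX1, SRXN1, SLC7A11 and OSGIN1 were each read mainly from 1 isoform, with 98.3%, 100%, 99.9% and 87.6% of their counts. OSGIN1 had 10.8% in a second, ENST00000563543, an isoform with no defined coding sequence. KEAP1 had 77.8% in ENST00000393623 and 18.2% in ENST00000171111. GCLM had 69.1% in ENST00000370238 and 27.8% in ENST00000615724.

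The other members were spread over more isoforms. NFE2L2 had 53.7% in ENST00000397063 and 33.6% in ENST00000397062. NQO1 was divided among ENST00000564043 (35.4%), ENST00000379047 (27.4%), ENST00000379046 (21.9%) and ENST00000439109 (12.3%). TXNRD1 had 43.8% in ENST00000503506, 25.4% in ENST00000526691 and 16.3% in ENST00000524698. GCLC had 45.6% in ENST00000650454, 19.6% in ENST00000513939 and 14.7% in ENST00000643939.

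One isoform of GCLC differed between libraries in a way that the gene's sum did not. ENST00000229416, named after its values were seen, had 256.34 expected counts in replicate 1 of CA_IP, 255.46 in replicate 1 of FA_IP and 0 in the other 6 libraries. In the same pull-down libraries ENST00000650454 had 109.49 and 33.91 expected counts, against 325.22 and 373.01 in replicate 2 of CA_IP and FA_IP. Summed over its isoforms GCLC had 30.7 and 30.5 CPM in CA_IP and 26.2 and 28.9 CPM in FA_IP, as given above, with no such gap.

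A set of 40 other genes of the NRF2 pathway was examined by role, and all 40 were tested. In input 0 of them were higher and 0 lower after formaldehyde, and 0 were at an unadjusted p under 0.05. Their log2 fold changes had a median of 0.09, with 32 above 0 and 8 below, while 53.4% of all genes tested were above 0. With plain library size 28 of the 40 were above 0, beside 45.8% of all genes, and with TMM factors from protein-coding genes 31, beside 52.0%. Without replicate 2 of FA_IN the number was 26, beside 46.5%, and without replicate 1 of CA_IN 33, beside 53.4%. The 6 enzymes that supply NADPH, the reductant used by glutathione and thioredoxin reductases, had values between 0.07 and 0.24. The highest of these was ME1, the cytosolic malic enzyme, at 0.24 (95% interval -0.13 to 0.61). The 5 genes of heme and iron handling had values between 0.04 and 0.22, and the 2 thioredoxin genes 0.06 and 0.13. The other roles held values on both sides of 0. The 9 regulators ran from -0.15 to 0.19 with a median of -0.05. The 8 genes of glutathione and conjugate export ran from -0.31 to 0.19, and the 10 carbonyl and xenobiotic enzymes from -0.23 to 0.29. The largest in size on the list were ABCC2, an exporter of glutathione conjugates, at -0.31 (-0.92 to 0.30), and AKR1C3, an aldo-keto reductase, at 0.29 (-0.26 to 0.85).

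In pull-down against input, 0 of the 40 were higher and 2 lower in each treatment, TXN and RBX1. TXN, the cytosolic thioredoxin that TXNRD1 reduces, had 432 and 414 CPM in CA_IN, 206 and 208 CPM in CA_IP, 473 and 449 CPM in FA_IN, and 248 and 239 CPM in FA_IP. Both pull-down libraries lay far below both input libraries in each treatment. The log2 fold change of TXN was -1.03 ± 0.08 (SE) in clean air (edgeR adjusted p = 0.000224) and -0.92 ± 0.08 after formaldehyde (adjusted p = 0.000491). RBX1, the RING subunit of the ligase to which KEAP1 delivers NRF2, had 69.2 and 69.2 CPM in CA_IN, 33.7 and 39.0 CPM in CA_IP, 80.4 and 77.1 CPM in FA_IN, and 42.3 and 45.0 CPM in FA_IP. These groups did not overlap either. RBX1 fell by 0.93 on the log2 scale in clean air (edgeR adjusted p = 0.00151) and by 0.85 after formaldehyde (adjusted p = 0.00316). The call of RBX1 after formaldehyde was lost without replicate 1 of FA_IN (-0.81, adjusted p = 0.0557) and without replicate 1 of FA_IP (-0.81, adjusted p = 0.0508).

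The main isoforms of TXN and RBX1 are short, 869 and 1188 nt. They belong to the second of 10 bins of genes by length (820 to 1294 nt), in which 2.63% of genes were called lower in CA_IP and 2.3% in FA_IP. In the shortest bin, up to 819 nt, these shares were 13.4% and 11.2%, and in each of the 7 longest bins they were at most 0.22%. NQO1, whose main isoform has 892 nt, is in the same bin as TXN and was not called. Values in this bin went both ways. In clean air BLVRB (873 nt) had 0.45 and FTH1 (825 nt) -0.40, neither called in this fit. The part of length in the values of TXN and RBX1 was not tested.

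The other 38 genes of the list did not pass in pull-down against input. BLVRB, a biliverdin reductase, had 24.2 and 22.4 CPM in CA_IN and 30.6 and 32.8 CPM in CA_IP. Its log2 fold change in clean air was 0.45 ± 0.12 (SE, edgeR adjusted p = 0.121). With the replicate number as a block BLVRB was called in clean air (adjusted p = 0.00765) and after formaldehyde (0.0491), and with the RNA preparation as a block in both as well (0.000608 and 0.00908). With plain library size it was called in clean air (0.59, adjusted p = 0.0239) and not after formaldehyde (0.51, adjusted p = 0.0539). MAFK, a small MAF partner of NRF2, was called in clean air under the block of RNA preparation (0.31, edgeR adjusted p = 0.0261). These were not the only genes whose call rested on the fit. With the replicate number as a block 8 of the 40 were called higher and 3 lower in clean air, and 4 higher and 3 lower after formaldehyde. Of all 18242 genes 1235 were called higher and 706 lower in clean air in that fit, and 367 and 586 after formaldehyde. With the RNA preparation as a block 14 of the 40 were called higher and 3 lower in clean air, and 5 and 3 after formaldehyde. For all genes these counts were 2111 and 1067 in clean air, and 995 and 840 after formaldehyde. With plain library size 6 of the 40 were called higher and 2 lower in clean air, and 2 and 2 after formaldehyde. For all genes they were 821 and 336 in clean air, and 318 and 243 after formaldehyde. SQSTM1, an adaptor that binds KEAP1, TKT, the transketolase, and SLC3A2, the heavy chain that partners SLC7A11, were called higher under both blocks in both treatments and are named, like FTH1, after their values were seen. With the RNA preparation as a block their log2 fold changes in clean air were 0.32 for SQSTM1, 0.37 for TKT and 0.33 for SLC3A2. FTH1, the heavy chain of ferritin, was the gene called lower in both treatments under both blocks beside TXN and RBX1, at -0.39 in clean air and -0.45 after formaldehyde. DESeq2 called FTH1 after formaldehyde (-0.46), and edgeR without a filter called it in both treatments and TKT in clean air. FTH1 has many near-identical pseudogenes, so its counts are uncertain. GPX2, a glutathione peroxidase with 18 to 42 counts per library, had the largest positive value after formaldehyde, 0.50 (-0.37 to 1.37). In the interaction 0 of the 40 were called, with AKR1C2 at 0.32, MAFK at -0.20 and AKR1B10 at 0.20 as the largest in size.

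Some of these counts may hold reads of neighbouring transcripts. OSGIN1 overlaps MLYCD over 20135 bases on the same strand, and SRXN1 overlaps ENSG00000270299 over 6575 bases on the same strand. TXNRD1 also overlaps EID3 on the same strand. In these 3 cases reads that fit both genes would be divided between them by estimation. The summed expected counts of OSGIN1, SRXN1 and TXNRD1 were whole numbers in every library, so no fractional share was seen. NFE2L2 and HNRNPA3 overlap on opposite strands over 5293 bases, and antisense RNAs are annotated at GCLC (GCLC-AS1) and SLC7A11 (SLC7A11-AS1). Counting used no strand setting, so reads from the 2 strands of these loci cannot be told apart.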

How the data were processed

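The authors trimmed 75-base paired reads with cutadapt, aligned them to GRCh38 with STAR 2.6.0a and quantified isoforms with RSEM 1.2.25. They deposited, per isoform, expected counts, which were not normalized, and TPM values, which they scaled to the same total in each library. Their 3 deposited tables of DESeq2 fold changes and p-values were not used. Columns of other samples numbered 0. The study's methods and the sample characteristics name one antibody clone and the labels' extraction protocol another.

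Expected counts were summed by gene and rounded. Genes with at least 10 counts in at least 2 of 8 libraries were tested with edgeR 4.0.16 in R 4.3.3 (TMM, quasi-likelihood, prior count 0.125, Benjamini-Hochberg limit 0.05, no fold limit), in 1 model of the 4 groups, which was tried on simulated counts. Intervals are 95% intervals from that fit, on the log2 scale. The main isoform has the highest mean count. G content was read from GENCODE 44 by isoform ID; 9822 of 17934 sequences differ in length from the tables. Members and lists were chosen with earlier results of these data known. All members are named, as are pathway genes that were called or among the 3 largest in a comparison, and isoforms with at least 10% of a gene's counts. Replicates were numbered 1 and 2 in accession order. Same-numbered libraries deviated together (correlations of 0.203 to 0.380 over 6 pairs of groups), and input and pull-down of a number came from 1 RNA preparation by the methods and the deposited names, so blocked fits are given. Replicates of a group differed beyond counting noise (chi-square per degree of freedom 11.5 to 23.1). Alternatives were DESeq2 1.42.0, other scaling, filters, prior count, 4 libraries (DESeq2 there without a filter), blocks and each library left out. Levels in TPM, the replicate differences and the pathway calls under each alternative were added after seeing the data.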

Additional observations from a re-analysis of the deposited data

How the results depend on the processing

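The count of members called was 0 under every alternative run (17 for input, 18 for each pull-down comparison and 16 for the interaction), with smallest adjusted p-values of 0.110, 0.0691, 0.0687 and 1.00. Signs of members changed in 79 of 690 refitted values, none of them called. In 13 of the 40 pairs of member and comparison the sign never changed, among them NFE2L2, GCLC, GCLM, SRXN1 and SLC7A11 in input. Counts over all genes depended on the processing, and the cause was not tested. For input, with 1 gene called, DESeq2 on 8 libraries, and on 4 without a filter, gave 3 each, no filter 100, edgeR on 4 libraries 0 (663 at an unadjusted p under 0.05), the replicate block 258, and leaving out a library 0 to 1. For clean air pull-down, with 349 called, library size gave 1157 (821 higher and 336 lower), no filter 686, the replicate block 1941 (1235 higher and 706 lower), the RNA preparation block 3178 (2111 and 1067), and leaving out a library 194 to 318, the lowest without replicate 1 of CA_IP and 217 without replicate 1 of CA_IN. For formaldehyde pull-down, with 274 called, library size gave 561 (318 and 243), no filter 578, the replicate block 953 (367 and 586), the RNA preparation block 1835 (995 and 840), and leaving out a library 121 to 282, with 121 without replicate 1 of FA_IN, 146 without replicate 1 of FA_IP and 161 without replicate 2 of FA_IP. For the interaction, with 0 called (195 at an unadjusted p under 0.05), DESeq2 on 8 libraries and the replicate block gave 3 each, no filter 52, the RNA preparation block 25, and leaving out a library 0 to 5, with 5 without replicate 1 of FA_IP. In pull-down against input, library size moved the median of all genes to 0.16 in clean air and 0.17 after formaldehyde. That of the members moved to 0.18 and 0.20. A change of scaling acts on all genes of a library alike, so this shift tells nothing about the members in particular. With 2 libraries a group, changes smaller than the intervals above could not be told from 0, and p-values measure the spread between these libraries only. Where a library was left out, the lone one was taken to vary like the others.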
